A study of Mus musculus with 6 samples.

Results

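The genes described here carry out MHC class I antigen processing, the steps by which peptides cut from cytosolic proteins reach MHC class I molecules, in natural killer cells (NKC) with and without the transcription factor Runx3. The 10 genes are Nlrc5, B2m, Tap1, Tap2, Tapbp, Psmb8, Psmb9, Psmb10, Psme1 and Psme2, and every probe set whose platform annotation names a gene of this set, and no other gene, was taken. A probe set is a group of short array oligonucleotides read together. The rule gave 15 probe sets, of 45101 on the array, for 9 of the 10 genes. Psme2 has only a probe set that it shares with a near copy, so it has no value here. A signal of at least log2 5 on at least 1 array was reached by 12 of the 15, among 19120 probe sets tested, while the other 3 all belong to Tap1.

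The arrays compared freshly isolated, unstimulated (resting) splenic NKC of ICR mice aged 6 weeks, an outbred stock, between 3 Runx3-/- and 3 WT (Runx3 +/+) samples, each stated to come from an individual mouse although the sex of every sample is given as both male and female. NKC were enriched by removing other cells and then sorted for DX5, a surface integrin that other blood cells can also carry. The labels give the genotype alone and name no cell type to which the deletion is limited. Total RNA was labelled with biotin and hybridised to an Affymetrix mouse array. The deposited values are log2 signals after GC-RMA, a normalization meant to bring the arrays to a common distribution.

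The proteasome cuts proteins into peptides, and in lymphocytes its catalytic subunits are largely replaced by the immunosubunits encoded by Psmb8, Psmb9 and Psmb10, while the products of Psme1 and Psme2 form a cap that opens it. The transporter made of Tap1 and Tap2 moves the peptides into the endoplasmic reticulum, where tapasin, encoded by Tapbp, holds the empty class I heavy chain with its light chain beta-2 microglobulin (B2m) next to the transporter until a peptide fits. Nlrc5 is the transactivator that drives class I heavy chain genes and several of the members, and interferon gamma, an NKC product, is known to raise the pathway. NKC also read class I molecules on other cells through inhibitory receptors.

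Between 17074 and 17771 probe sets per array, 37.9% to 39.4%, reached log2 5. Runx3 had log2 signals of 7.76, 8.51 and 8.68 in Runx3-/- and of 10.11, 11.56 and 10.73 in WT, 5.59-fold lower in Runx3-/- with no overlap (limma adjusted p = 0.096), though where its probe set lies relative to the deleted part is not known here. Of the NK cell markers, Ncr1, the NKp46 receptor, was at 13.34 to 14.20 on the log2 scale on all 6 arrays and Klrd1 at 14.13 to 14.63. Styk1, of the same list, was at 5.75 to 6.44 in Runx3-/- and at 9.05 to 9.98 in WT. Runx3-/- was compared with WT by limma over all tested probe sets, and a probe set is called at the study's thresholds when its unadjusted p is under 0.05 and it differs at least 1.5-fold, or at BH 5% when its Benjamini-Hochberg adjusted p is under 0.05. Each gene is described by its brightest probe set, 9545 genes in all. In bulk samples of this kind, fewer cells of a type and less RNA per cell cannot be told apart.

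Promoter sequences of members are shown for the elements they hold near the start of transcription. RefSeq promoter windows (assembly GRCm38.p6, from 250 bases before to 50 after the start) existed for 8 of the 10 genes, with none for Nlrc5 or Tap2. They were searched on both strands for the core RUNX motif (TGTGGT or TGTGGC or TGCGGT or TGCGGC), present in 45.2% of all 32851 windows, the interferon-stimulated response element GAAANNGAA (8.56%), the gamma-activated site TTCNNNGAA (8.3%), CCAAT (37.4%), TGACGT (7.51%) and the NF-kappaB motif GGNNTTTCC (5.82%). Of these motifs none overlapped another in the windows of the members. The 3 windows with a RUNX motif were those of Tapbp, Psmb10 and Psmb8, a share close to that of all windows. B2m, whose product pairs with every classical class I chain, is shown because its window held the most kinds of motif. Its upstream bases, chr2:122147437-122147686 on the plus strand, carry in capitals an interferon-stimulated element from -139 to -131, an NF-kappaB motif on the other strand from -126 to -118 and a CCAAT on the other strand from -53 to -49, counted from the start.
B2m: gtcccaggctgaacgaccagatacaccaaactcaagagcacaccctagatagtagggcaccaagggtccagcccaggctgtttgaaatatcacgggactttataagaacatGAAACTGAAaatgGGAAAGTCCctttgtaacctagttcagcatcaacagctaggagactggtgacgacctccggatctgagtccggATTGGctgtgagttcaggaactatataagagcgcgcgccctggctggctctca
Tap1 and Psmb9 are shown because they lie head to head, with 225 bases between their annotated starts at chr17:34187331-34187555. On the strand of Tap1 the stretch holds a CCAAT, in capitals, from -222 to -218 of Tap1, which is -8 to -4 of Psmb9 on its other strand, and no RUNX motif.
Tap1 and Psmb9: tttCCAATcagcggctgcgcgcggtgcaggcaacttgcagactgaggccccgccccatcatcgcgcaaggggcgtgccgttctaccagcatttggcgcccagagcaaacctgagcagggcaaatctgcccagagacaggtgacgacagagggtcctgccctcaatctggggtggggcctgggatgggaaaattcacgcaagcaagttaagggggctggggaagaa
Tapbp and Psmb10 are shown as the members with a RUNX motif before their start. In Tapbp, chr17:33919228-33919477 on the plus strand, the capitals mark a RUNX motif from -92 to -87 and CCAAT on the other strand from -248 to -244 and from -165 to -161.
Tapbp: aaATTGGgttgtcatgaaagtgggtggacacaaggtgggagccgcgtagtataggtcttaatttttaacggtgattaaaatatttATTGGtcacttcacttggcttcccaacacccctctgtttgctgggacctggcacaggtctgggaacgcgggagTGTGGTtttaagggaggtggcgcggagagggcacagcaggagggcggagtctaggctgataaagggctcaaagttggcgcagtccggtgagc
In Psmb10, chr8:105938393-105938642 on the minus strand and written 5′ to 3′ along the gene, the capitals mark RUNX motifs from -27 to -22 and, on the other strand, from -13 to -8.
Psmb10: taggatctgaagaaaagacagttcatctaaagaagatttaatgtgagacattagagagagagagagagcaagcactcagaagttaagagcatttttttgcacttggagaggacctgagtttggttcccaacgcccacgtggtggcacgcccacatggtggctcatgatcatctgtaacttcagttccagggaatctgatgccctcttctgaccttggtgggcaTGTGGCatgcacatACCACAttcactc
The Psmb8 window held a gamma-activated site from -97 to -89 and a RUNX motif from 27 to 32 after the start, and the Psme1 window an interferon-stimulated element from 11 to 19 after the start. These matches are letters in the reference sequence and not measured binding sites.

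Of the 9 genes, 1 was higher in Runx3-/- at the study's thresholds, Nlrc5, where 4.57% of all genes tested were, and 0 were lower, where 8.32% were. None passed BH 5% by limma, a criterion that 0.0943% of all genes met, and Nlrc5 was also the only member with an unadjusted p under 0.05. The groups did not overlap in 4 of the 9, Nlrc5 and Tap1 higher and Tap2 and Tapbp lower in Runx3-/-, where 22.8% of all genes did not. The difference was above 0 in 6 genes and below 0 in 3, where 37.8% of all genes lay above 0. The median difference of the 9 was 0.15 on the log2 scale, or 0.12 without Nlrc5, and that of all genes -0.13.

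**Figure D1:**
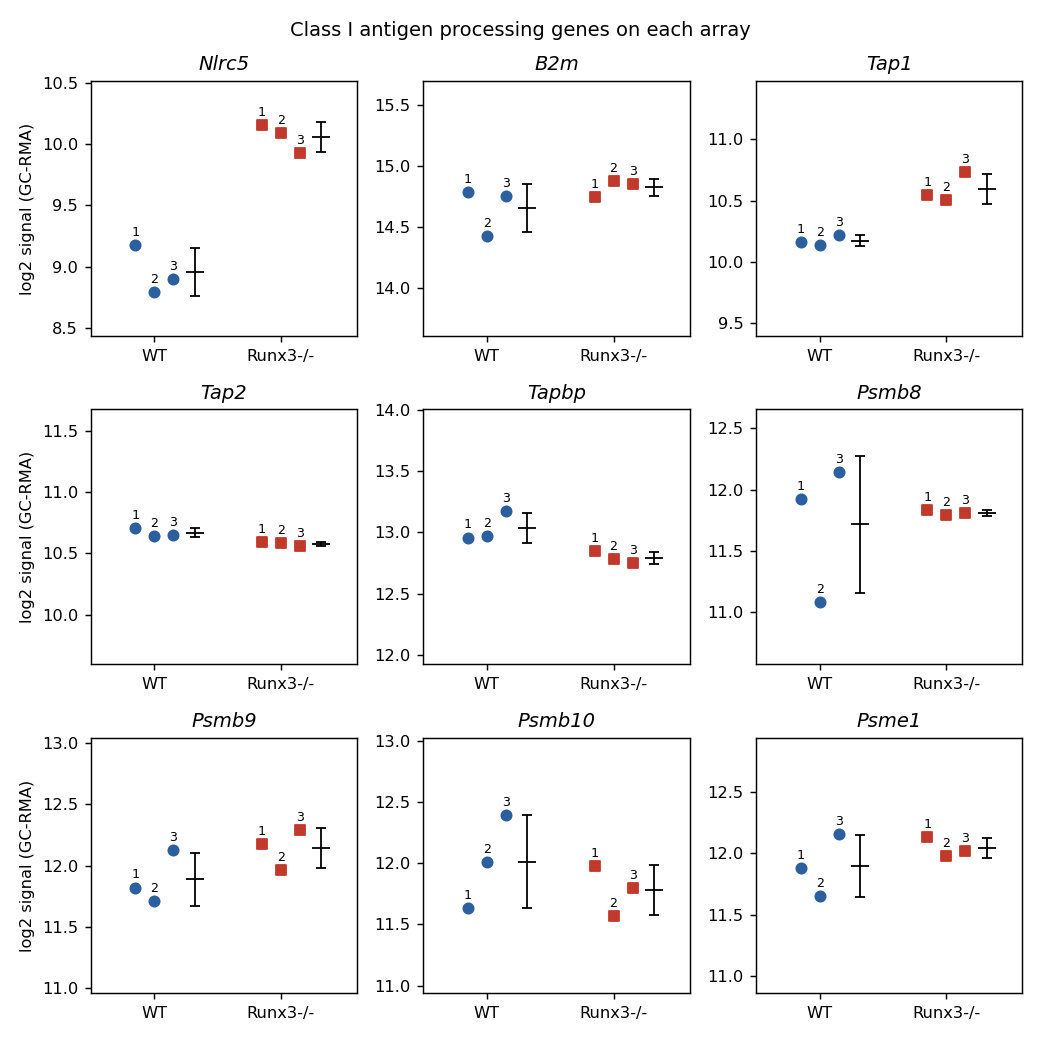
Log2 signal (vertical axis, each panel with its own range) of the 9 class I antigen processing genes by array, drawn as circles in WT and squares in Runx3-/- with replicate numbers above them, the black bars marking mean and SD (n = 3). Nlrc5 lay at 9.92 to 10.16 in Runx3-/- and at 8.79 to 9.17 in WT, and in Psmb8 the WT arrays ran from 11.09 to 12.14 around the narrow Runx3-/- group.

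Nlrc5, the class I transactivator, had the largest difference of the members. Its log2 signal was 10.16, 10.09 and 9.92 in Runx3-/- and 9.17, 8.79 and 8.90 in WT, so that every Runx3-/- array lay above every WT array. The means were 10.06 ± 0.12 and 8.95 ± 0.20 (SD, n = 3 each), a 2.15-fold higher signal in Runx3-/- (95% confidence interval 1.53 to 3.01). The difference of 1.10 on the log2 scale (SE 0.21) passed the study's thresholds and missed BH 5% (limma adjusted p = 0.108). By p the gene was at place 100 among the 9545 genes, and its difference was larger than that of 96.5% of them. Its mean signal over the 6 arrays was above that of 59.5% of all tested genes, the lowest share of the members.

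The genes whose pattern over the 6 arrays lay nearest to Nlrc5 were found by the root mean square distance between log2 signals, each gene centred on its own mean. They were Phf6, a chromatin protein (distance 0.144), Castor1, an arginine sensor (0.161), H2-Aa, an MHC class II chain (0.162), Tspan32, a tetraspanin (0.167), and Pnisr (0.17). Each was higher in Runx3-/- at the study's thresholds, from 0.81 to 1.18 on the log2 scale. That direction follows from choosing them by nearness to Nlrc5 on the same arrays. H2-Aa had log2 signals of 11.43, 11.08 and 10.88 in Runx3-/- and of 10.48, 9.91 and 9.77 in WT. Among the other members the nearest was Tap1, at place 252 (0.384), followed by Psmb9 at place 841, and the farthest was Psmb10 at place 5634.

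Of the lists of markers of other cell types, those of basophils, B cells, dendritic cells and macrophages had medians above 0, as Nlrc5 did. So did platelet and erythroid markers (0.23, 0 higher and 0 lower of 4 tested). Those of T cells (-0.29, 0 higher and 0 lower of 7 tested) and neutrophils (-0.62, 1 higher and 0 lower of 11) had medians below 0. Of all genes 4.57% were higher and 8.32% lower. Of 12 tested basophil and mast cell markers 10 were higher in Runx3-/- at the study's thresholds, and their mean log2 signal per array was 10.26 to 11.45 in Runx3-/- and 8.81 to 9.33 in WT, with Il13 and Il3ra below log2 5 on all arrays. Cd200r3, of the same list, differed by -0.36. Of 11 B cell and plasma cell markers 4 were higher (array means 7.31 to 8.39 and 6.34 to 7.35), with Pax5 and Vpreb3 below log2 5 on all arrays. Of 9 dendritic cell markers 3 were higher, the MHC class II chains H2-Aa, H2-Ab1 and H2-Eb1, and 1 lower, Itgax (-2.00, without overlap). The remaining tested ones, Cd74 (1.14), Bst2 (0.58), Zbtb46 (0.44), Batf3 (0.36) and Flt3 (-0.35), met the thresholds in neither direction. The difference was above 0 in 7 of the 9 and below 0 in 2. The array means were 8.18 to 8.55 and 7.64 to 8.03, with Xcr1, Siglech, Ccr9, Cd209a and Ciita below log2 5 on all arrays. Of 13 macrophage markers 1 was higher (4.98 to 9.36 and 6.49 to 6.74), with Ms4a7 below log2 5 on all arrays. The lowest macrophage mean of the 6 arrays was that of Runx3-/- replicate 3. Runx3-/- replicate 1 had the highest basophil, B cell, dendritic cell and macrophage means. Without it Nlrc5 differed by 1.05 on the log2 scale (limma adjusted p = 0.234), at the study's thresholds. Runx3-/- replicates 2 and 3, which were kept, had basophil and mast cell means of 10.36 and 10.26, above those of all WT arrays. The part of basophil, B cell, dendritic cell and macrophage RNA in the Nlrc5 signal was not tested. Of 17 NK cell markers 0 were higher and 2 lower, Styk1 (-3.59, limma adjusted p = 0.0265) and Eomes (-0.70, limma adjusted p = 0.234). The array means of the list were 11.91 to 12.25 in Runx3-/- and 12.03 to 12.52 in WT, and Styk1 weighs on them. The list median, on which it weighs less, was -0.02, against -0.13 for all genes. Differences were above 0 in 6 of the 17 and below 0 in 10.

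**Figure D2:**
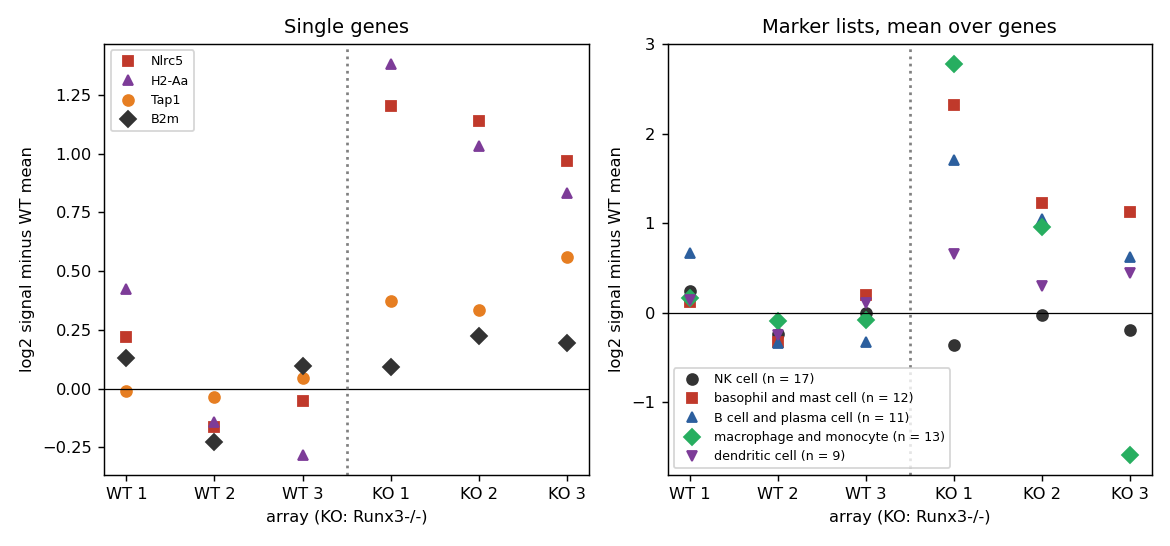
Log2 signal minus the WT mean (vertical axes) on each array (horizontal axes, KO for Runx3-/-), for Nlrc5, H2-Aa, Tap1 and B2m on the left and for the mean of each marker list on the right. Nlrc5 lay 0.97 to 1.20 above the WT mean on the 3 Runx3-/- arrays, and the macrophage mean was the lowest of all arrays in Runx3-/- replicate 3.

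B2m, the class I light chain, was the brightest member, brighter than 99.6% of all tested genes. Its log2 signal was 14.75, 14.88 and 14.85 in Runx3-/- and 14.79, 14.43 and 14.75 in WT, and the groups overlapped. The difference was 0.17 on the log2 scale (1.12-fold, 95% confidence interval 0.808 to 1.57, limma adjusted p = 0.72). On the second B2m probe set the signals were 14.33, 14.60 and 14.59 in Runx3-/- and 13.82, 13.08 and 14.43 in WT. Its difference was 0.73 (1.66-fold, 0.937 to 2.93, limma adjusted p = 0.376), with overlap and a WT range set by replicates 2 and 3. The second set met the study's thresholds in 5 of 18 other settings, among them without WT replicate 3, where the difference was 1.05, while the brighter set met them in none.

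Tap1, a chain of the peptide transporter, had log2 signals of 10.55, 10.51 and 10.73 in Runx3-/- and of 10.16, 10.14 and 10.22 in WT. The groups did not overlap. The difference of 0.42 (1.34-fold, 95% confidence interval 0.983 to 1.83) was below 1.5-fold, and the limma adjusted p was 0.351. In WT the Tap1 arrays lay within a narrow range (SD 0.04, n = 3), and the Runx3-/- arrays were farther apart (SD 0.12). The 3 other Tap1 probe sets had signals of at most 3.03 on every array, below the level tested. Tap2, the partner chain, had signals of 10.59, 10.58 and 10.56 in Runx3-/- and of 10.71, 10.64 and 10.65 in WT. Its groups did not overlap either, in the opposite direction, but the difference was only -0.09 (95% confidence interval -0.52 to 0.34, limma adjusted p = 0.848). The intervals of Tap1 and Tap2 overlap, and the difference between these chains was not tested.

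Tapbp, which encodes tapasin, had log2 signals of 12.85, 12.79 and 12.75 in Runx3-/- and of 12.96, 12.97 and 13.18 in WT. All Runx3-/- arrays lay below all WT arrays. The difference was -0.24 (1.18-fold lower, 95% confidence interval of the log2 difference -0.69 to 0.21, limma adjusted p = 0.569). A second, much dimmer probe set, at 5.91, 6.48 and 6.00 in Runx3-/- and 5.63, 5.52 and 6.52 in WT, went the other way by 0.24 with overlap (limma adjusted p = 0.747). The mean of both sets differed by 0.0009.

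**Figure D3:**
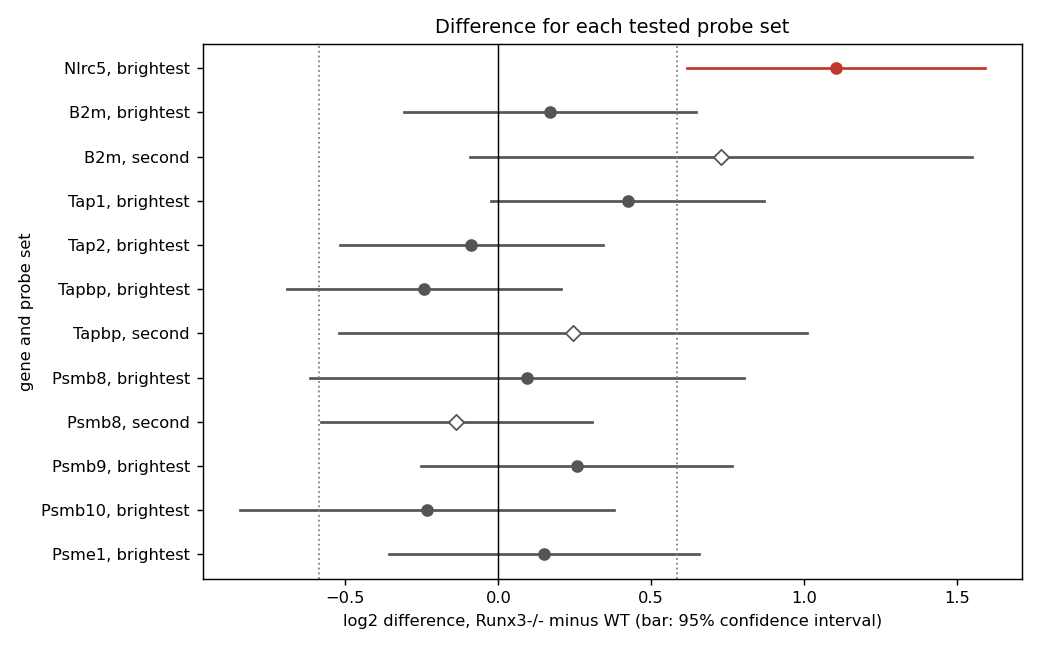
Log2 difference, Runx3-/- minus WT (horizontal axis), for the 12 tested probe sets (vertical axis), with bars for the 95% confidence interval, open diamonds for the second probe set of a gene and dotted lines at 1.5-fold. The interval excludes 0 for Nlrc5 alone (0.62 to 1.59), and that of the second B2m set runs from -0.09 to 1.55.

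The immunosubunits did not meet the study's thresholds in either direction. Psmb9, which replaces Psmb6, had log2 signals of 12.18, 11.96 and 12.29 in Runx3-/- and of 11.82, 11.71 and 12.13 in WT, a difference of 0.26 with overlap (95% confidence interval -0.25 to 0.77, limma adjusted p = 0.594). Psmb8, which replaces Psmb5, had signals of 11.84, 11.79 and 11.81 in Runx3-/- and of 11.92, 11.09 and 12.14 in WT. The Runx3-/- arrays lay within a range of the WT arrays that WT replicate 2 extended downward (SD 0.02 and 0.56, n = 3 each). The Psmb8 difference was 0.09 (95% confidence interval -0.62 to 0.80, limma adjusted p = 0.907), and -0.22 without WT replicate 2. Its dimmer probe set, at 8.16, 8.12 and 8.25 in Runx3-/- and 8.22, 8.38 and 8.34 in WT, gave -0.14 with overlap (limma adjusted p = 0.754). Psmb10, which replaces Psmb7, had signals of 11.97, 11.57 and 11.80 in Runx3-/- and of 11.63, 12.01 and 12.40 in WT. The groups overlapped, with a difference of -0.23 (95% confidence interval -0.84 to 0.38, limma adjusted p = 0.698).

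Psme1, a subunit of the proteasome cap, had log2 signals of 12.14, 11.98 and 12.02 in Runx3-/- and of 11.88, 11.65 and 12.15 in WT. The groups overlapped, with a difference of 0.15 (1.11-fold, 95% confidence interval 0.781 to 1.57, limma adjusted p = 0.768).

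Across the members, the Runx3-/- arrays were closer together than the WT arrays in 8 of 9 genes by SD, as in 53.7% of all genes, and Tap1 was the exception. WT replicate 2 was the lowest of the 6 arrays in 6 of the 9 genes, and WT replicate 3 the highest in 4. The mean of the 9 genes against their WT means was 0.22, 0.13 and 0.19 on the Runx3-/- arrays and 0.01, -0.18 and 0.17 on the WT arrays, so that WT replicate 3 lay within the Runx3-/- range. By the median of the 9, which Nlrc5 weighs on less, the values were 0.12, 0.07 and 0.12 in Runx3-/- and -0.01, -0.16 and 0.14 in WT, with WT replicate 3 above every Runx3-/- array. The members were bright in NKC of both groups. Apart from B2m and Nlrc5, their signals were above those of 73.3% of all genes or more, Tapbp above 95.9% and Psmb9 above 91.2%. These levels come from different probe sets and are not an order of transcript abundance.

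The constitutive subunits that the immunosubunits replace differed by -0.48 for Psmb5, -0.06 for Psmb6 and -0.26 for Psmb7 on the log2 scale. None met the study's thresholds. Psmb5 had log2 signals of 11.90, 11.95 and 12.12 in Runx3-/- and of 12.18, 12.65 and 12.57 in WT, without overlap (limma adjusted p = 0.358). Of the 16 other core subunits and assembly factors of the proteasome 1 was higher, the alpha subunit Psma1 (0.62, limma adjusted p = 0.309), though its dimmer probe set gave 0.18, and 0 were lower. The median of these 16 was -0.12. Of all genes 4.57% were higher and 8.32% lower. The alternative cap subunit Psme3 (-0.65, limma adjusted p = 0.337), Psmf1, an inhibitor (-0.30), and the activator Psme4 (0.20) did not meet the thresholds.

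Downstream of the proteasome, 2 of 10 tested peptidases were lower and 0 higher, where 8.32% and 4.57% of all genes were. The list median was -0.46, against -0.13 for all genes. Rnpep, aminopeptidase B, had log2 signals of 6.90, 6.91 and 7.02 in Runx3-/- and of 7.84, 8.05 and 8.17 in WT, 2.10-fold lower with no overlap (limma adjusted p = 0.107). Lap3, leucine aminopeptidase, had signals of 7.44, 7.88 and 7.96 in Runx3-/- and of 8.47, 8.85 and 8.90 in WT, 1.98-fold lower with no overlap (limma adjusted p = 0.186). Among 14 other genes of peptide loading and class I folding, such as Calr and Canx, chaperones of the heavy chain, 0 were higher and 0 lower (median -0.09), and Tapbpl, a tapasin relative, gave -0.34 (limma adjusted p = 0.476).

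Of 30 listed heavy chains and related chains that pair with B2m, 16 had a probe set of their own and 11 were tested. Among the 11, 1 was higher and 1 lower, where 4.57% and 8.32% of all genes were. The list median of 0.30 was the value of Hfe, which reached log2 5 on only 3 of the 6 arrays. Fcgrt (1.45) reached it on 1 array, in Runx3-/-. Probe sets of this family are prone to read several of its members. The classical chain H2-K1 differed by 0.00 on its brightest probe set and by up to 0.42 on the 3 others (limma adjusted p not under 0.05 for any). H2-D1, the other classical chain measured, differed by 0.02 on its brightest, and 3 of its 8 tested probe sets separated Runx3-/- replicate 3 and WT replicate 1 from the other 4 arrays. Cd1d1, which presents lipids, had log2 signals of 10.53, 10.59 and 10.84 in Runx3-/- and of 11.71, 11.49 and 11.44 in WT, 1.85-fold lower with no overlap (limma adjusted p = 0.171), and its second probe set gave -1.15 (adjusted p = 0.096). H2-Q10, a secreted class I chain, was 2.36-fold higher with overlap, at 7.54, 8.81 and 9.16 in Runx3-/- and 7.59, 7.30 and 6.90 in WT (limma adjusted p = 0.27).

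**Figure D4:**
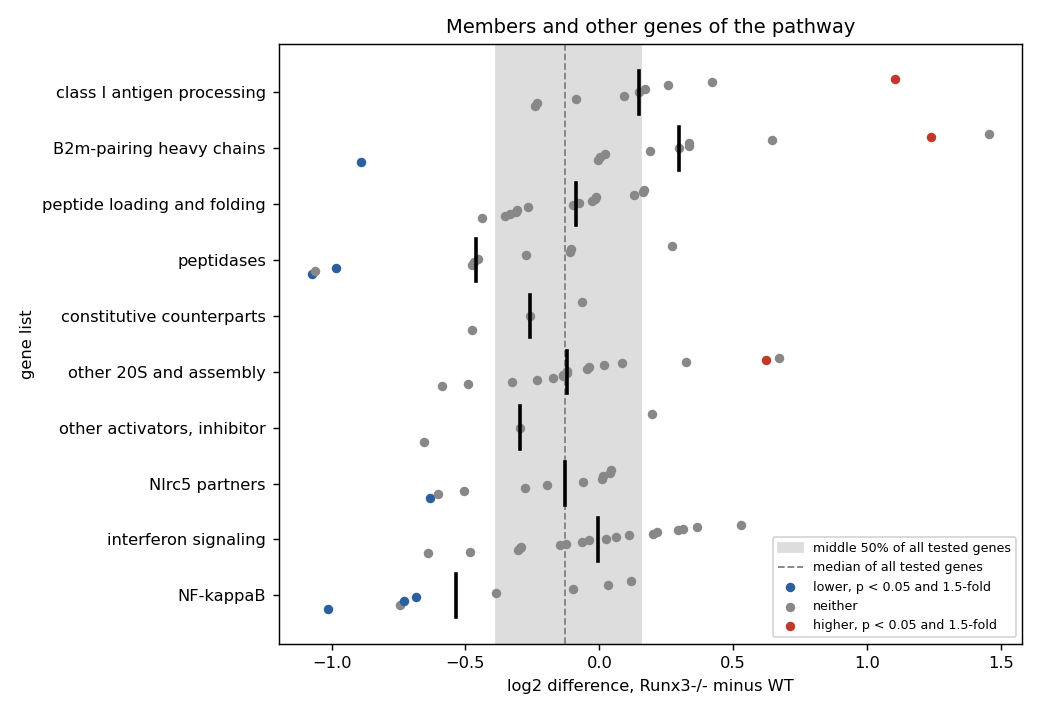
Difference in log2 signal between Runx3-/- and WT (horizontal axis) for the tested genes of the members and in 9 lists of other pathway genes (vertical axis), with black bars for list medians, a dashed line for the median of all tested genes (-0.13) and grey for the middle 50% of them. The medians run from 0.30 for chains that pair with B2m to -0.53 for NF-kappaB genes, and points in colour met the study's thresholds.

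Upstream of the members, 10 partners that act with Nlrc5 on class I promoters were tested. Among them 1 was lower, where 8.32% of all genes were, namely Rfxap, a subunit of the RFX complex. Its log2 signals were 9.11, 9.34 and 9.27 in Runx3-/- and 9.66, 9.83 and 10.12 in WT, without overlap (difference -0.63, limma adjusted p = 0.262), and its second probe set gave -0.55. Crebbp, a coactivator, differed by -0.50 without overlap (limma adjusted p = 0.292), under 1.5-fold, while its 3 dimmer probe sets gave -0.24, -0.37 and 0.24 with overlap. Rfx5 differed by 0.04. Of 18 genes of interferon signaling 0 were higher and 0 lower, with a median of -0.01. Ifng itself had signals of 10.13, 10.15 and 10.18 in Runx3-/- and of 9.77, 9.96 and 9.62 in WT, a difference of 0.37 without overlap (limma adjusted p = 0.418). Irf1, a factor that drives class I genes, differed by 0.06 and Irf8 by 0.02. The dimmer probe sets of Irf3 went to -0.75, at the study's thresholds, and -0.12, against -0.48 on the brightest.

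Of 8 NF-kappaB subunits and inhibitors 3 were lower and 0 higher, where 8.32% and 4.57% of all genes were. Their median was -0.53, against -0.13 for all genes. Relb, a subunit of the alternative pathway, had log2 signals of 8.73, 8.20 and 8.60 in Runx3-/- and of 9.26, 9.66 and 9.65 in WT, 2.02-fold lower with no overlap (limma adjusted p = 0.177). The inhibitors Nfkbie (-0.73, limma adjusted p = 0.196) and Nfkbib (-0.68, limma adjusted p = 0.223) were the others, and the dimmer Nfkbie set gave -0.31.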

How the data were processed

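Per the labels and the study's methods, RNA of 3 Runx3-/- and 3 WT samples of resting splenic NKC was hybridised to Affymetrix arrays, and the authors processed the scanner files with GC-RMA in Partek and deposited log2 values for 45101 probe sets. Both tools are also named, without a version, in the submitters' processing notes. GC-RMA is meant to bring arrays to a common distribution, so a change in total RNA cannot be seen. The deposited values did not share exactly the same distribution. Quantile normalization of them moved the Tap2 difference from -0.09 to -0.0013 and that of Nlrc5 from 1.10 to 1.19. The platform annotation gave 1 symbol to 34945 probe sets, several to 932 and none to 9160, beside 64 controls. 34741 of those with 1 symbol matched a RefSeq gene of GRCm38.p6, and 0 were renamed. No array genome build is given in the sources used here.

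The 19120 probe sets at log2 5 or more on at least 1 array were fitted with limma 3.58.1 (lmFit, eBayes) in R 4.3.3 on all 6 arrays, without covariates, and p-values were adjusted by Benjamini-Hochberg over all of them. The methods ask for signal above background, without its level, and log2 5 stands in for it. The fit was tested on simulated data. Each gene is given by the probe set with the highest mean. The number of arrays limits precision, and no pair of arrays was a copy (at most 0.0111% identical values). Correlations between arrays over tested genes were 0.95 to 0.974 within groups and 0.925 to 0.96 between them.

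Besides the members the rule for named genes took Runx3, the 3 constitutive subunits, up to 4 genes with the smallest p in each of the other lists of pathway genes, and the 5 genes nearest to Nlrc5. Calr, Canx, H2-K1, H2-D1, Rfx5, Irf1, Irf8, Ncr1, Klrd1, Styk1, Eomes, Cd200r3, H2-Ab1, H2-Eb1, Itgax and the undetected markers were named outside it, after their values were seen. So were Hfe, Cd74, Bst2, Zbtb46, Batf3 and Flt3. The members, the 9 lists of pathway genes and the 8 lists of cell type markers were chosen with earlier results of these data known, and no list was tested as a set. Alternatives changed the filter on level, the scaling, the floor, the moderation, the weights of arrays, the choice of probe set, a replicate block and the arrays left out. Figures were drawn with matplotlib 3.10.9.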

Additional observations from a re-analysis of the deposited data

How the results depend on the processing

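Among the members, Nlrc5 met the study's thresholds in all 20 alternatives (log2 difference 1.02 to 1.28, limma adjusted p 0.0571 to 0.334), and the counts stayed at 1 higher, 0 lower and 0 past BH 5%. Nlrc5 has no other probe set, so the choice of probe set could not change its difference. The level filters, the floor, the moderation and the replicate block also left it at 1.10. In those alternatives only its p could change. The direction turned for Psmb8 without WT replicate 2 (-0.22; 0.31 at the other end of the leave-out range) and with the mean of all probe sets per gene (-0.0218), and for Tapbp with that mean (0.0009). The Tap1 mean fell below log2 5 and gave no value there. The other 6 genes and Tap1 kept their direction, with p from 0.00208 to 0.234 for Tap1, always under 1.5-fold.

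Over all probe sets, 16 passed BH 5% by limma (2845 had an unadjusted p under 0.05). The count was 6 of 45037 with no filter, 5 of 15691 with log2 5 on all 6 arrays and 25 of 14443 with log2 7 on 1. With the brightest probe set per gene it was 58 of 9545. Over the same 19120 probe sets it was 8 with a floor at log2 5, 31 with trend and robust moderation and 139 with array weights. Leaving out arrays gave 0 to 184 (184 without WT replicate 1; 0 without both Runx3-/- replicate 3 and WT replicate 1, an alternative chosen after seeing the data, with 3418 at an unadjusted p under 0.05). At the study's thresholds 1310 were higher and 1296 lower of the 19120 probe sets. With the brightest probe set the counts were 467 and 846 of 9545 genes, and with the mean 379 and 613 of 8612. Leaving out arrays gave 848 to 2021 higher (848 without Runx3-/- replicate 2, 2008 without WT replicate 1) and 841 to 1814 lower (841 without WT replicate 3). The median of all genes, -0.13, was -0.09 with median centring and -0.08 with quantile normalization.

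No pairing of the samples by their shared replicate numbers was seen (correlations of deviations 0.003, -0.158 and 0.133, with 2 of 6 arrays closest to their own number). With 3 arrays per group these values cannot exclude a pairing. The replicate block gave 2 probe sets past BH 5% and an adjusted p of 0.201 for Nlrc5, and changed no call among the members.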

Other observations

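H2-D1, a classical class I heavy chain that pairs with B2m, was read by 8 tested probe sets, and 3 of them set Runx3-/- replicate 3 and WT replicate 1 apart from the other 4 arrays. On the first of these sets the log2 signals were 2.40, 2.42 and 14.90 in Runx3-/- and 14.69, 2.50 and 2.59 in WT. On the second they were 7.95, 7.68 and 14.71 in Runx3-/- and 14.83, 7.50 and 7.50 in WT, and on the third 4.22, 4.39 and 11.11 in Runx3-/- and 10.42, 4.15 and 4.12 in WT. The split crosses the genotype groups. Of the 45037 probe sets that are not controls, these 3 were the only ones on which both arrays lay at least 2 above all 4 others on the log2 scale, and 1 probe set had them at least 2 below. The other 5 tested H2-D1 probe sets did not show the split, at 15.23, 15.14 and 14.68 in Runx3-/- and 15.18, 14.72 and 15.09 in WT on the brightest of them, with differences between genotypes of 0.02 to 0.32. What separates these arrays was not tested. With both arrays left out Nlrc5 differed by 1.28 on the log2 scale (limma adjusted p = 0.119), Tap1 by 0.35 and B2m by 0.22.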
